A study of Homo sapiens with 66 samples.

Results

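Chromosomal DNA is copied once per cell cycle by a machinery that is largely conserved from yeast to human cells. The origin recognition complex (ORC), CDC6 and CDT1 load the MCM2-7 helicase on DNA in G1 phase, MCM10, CDC45 and the GINS complex switch it on at the start of S phase, and the polymerases, the sliding clamp PCNA and its loader RFC then carry out synthesis. Many of these genes are transcribed in a wave around the G1/S transition, driven by the E2F family of transcription factors, so their RNA also reports how many cells of a culture are in that part of the cycle. The genes described here are 45 genes of this machinery: 7 of origin licensing, 6 of the MCM2-7 helicase, 6 of helicase activation, 4 of polymerase alpha-primase, 5 of polymerases delta and epsilon, 6 of the clamp and its loader, the 3 subunits of the single-strand binding protein RPA, FEN1 and LIG1 of the lagging strand, RRM1, RRM2 and TYMS of nucleotide supply, cyclins E1 and E2 and the uracil-DNA glycosylase UNG. They were chosen as a list of symbols, matched to the Ensembl identifiers of the deposited count files, and all 45 passed the filter on low counts, among 17812 genes tested and 58051 genes counted.

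RNA came from DLD-1 cells, a human colorectal adenocarcinoma line, in which an endogenous protein was fused to an auxin-inducible degron, AID, through which the TIR1 ligase marks it for destruction when auxin is present. The tagged proteins, spelled as in the labels, were AID-NeonGreen-TPR, NUP153-NeonGreen-AID and NUP50-NeonGreen-AID of the nuclear basket, GAP1-NeonGreen-AID (RANGAP1, the GTPase-activating protein of the Ran transport system), AID-FLAG-NXF1 (the mRNA export receptor) and AID-HA-GANP1 (GANP, the scaffold of the TREX-2 complex). Each group held 3 libraries, 66 in all: untreated cells of each line and of the parental DLD-1 cells, cells with 1 mM auxin for 2 h (TPR, NUP153, RANGAP1, NXF1, DLD-1) or 3 h (NUP50, GANP), cells after 8 h (TPR, NUP153, RANGAP1) or 9 h (NUP50), and, for AID-TPR, cells given the transcription blocker actinomycin D (ActD) for 2 h with or without auxin. AID-TPR libraries came in a set numbered 1 to 3 and a set labelled old1 to old3, and the 8 h time exists for the old set alone. Each line was edited, TIR1 included, and RNA cannot show the loss of the protein: the RNA of the tagged gene itself changed by a log2 fold change between -0.06 and 0.29 in all 12 comparisons of a tagged line with and without auxin, 1 of them under ActD.

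Between 18943661 and 55411411 reads per library fell on genes (median 32285399), and the counts of the 45 genes ranged from 338 (POLE2) to 39085 (MCM7) in a library. Of 8 epithelial markers 7 were above 1 CPM (reads of a gene scaled to library size) in every library and CDX1 in none, while the immune markers stayed below 1 CPM in all 66; of the fibroblast and endothelial markers, COL1A1 passed 1 CPM in 4 libraries and VWF in 65. The reads were counted in 3 ways, and the AID-TPR libraries numbered 1 to 3 were counted differently from the old and ActD ones, so each group was compared with the control libraries of its own line and label set. Against the labels stood the parental cells, where CYP1A1, a gene induced through the aryl hydrocarbon receptor, was lower in the libraries labelled auxin by a log2 fold change of -3.84 and higher with auxin in every tagged line without ActD, by 1.14 to 6.68. None of the 45 genes differed between the parental groups, whichever way these labels are read.

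A pair of AID-TPR libraries also stood against their labels. Taking the root mean square difference of log2 CPM over 10490 genes as a distance, the library labelled auxin 2 h old2 lay at 0.182 from 8 h old3 and at a mean of 0.274 from the 8 h group, but at 0.423 from the other 2 h libraries. The library labelled auxin 8 h old2 lay at 0.213 from 2 h old3 and at a mean of 0.293 from the 2 h group, but at 0.429 from the other 8 h libraries. No library was moved to another group, and each result that rests on them is given with and without them.

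Calls were made with edgeR's quasi-likelihood test on counts normalized by TMM, with Benjamini-Hochberg adjustment over all 17812 genes. With adjusted p under 0.05, a gene was called higher if its fold reached 1.3 (log2 0.38) and lower if it was 0.7 or less (log2 -0.51). Levels below are CPM after TMM normalization within a line, given in the order of replicates 1, 2 and 3. All adjusted p-values come from this edgeR test.

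The promoters of some of the genes are shown first. RefSeq's windows from 250 bases before to 50 after the start (GRCh38.p14) were matched by symbol for 38 of the 45 genes. The E2F-type motif, searched as TTTCCCGC, TTTCGCGC, TTTGCCGC and TTTGGCGC on both strands with overlapping matches kept, was found in 18 of the 38 (47.4%) and in 3.33% of all 27305 windows of that length, or 5.37% of the 11416 windows of tested genes. CCAAT on either strand was found in 23 of the 38 (60.5%), in 35.7% of all windows and in 36.5% of those of tested genes. TTTGAA, the core letters of the element that marks many G2/M genes, was found in RRM1 alone (2.63%). It was found in 15.4% of all windows and in 9.87% of those of tested genes. GINS3 (chr16:58392221-58392520, plus strand), CDT1 (chr16:88803539-88803838, plus strand) and PCNA (chr20:5126573-5126872, minus strand) rose after RANGAP1 loss, and each window holds 1 match, in capitals, beginning at -5, -35 and -59, where negative positions count bases before the start. ORC6 (chr16:46689409-46689708, plus strand), which fell with GINS3 after NXF1 and GANP loss, has no match in its window. MCM6 (chr2:135876394-135876693, minus strand) is the window with the most matches, 4 of them as 2 overlapping pairs on both strands.
GINS3: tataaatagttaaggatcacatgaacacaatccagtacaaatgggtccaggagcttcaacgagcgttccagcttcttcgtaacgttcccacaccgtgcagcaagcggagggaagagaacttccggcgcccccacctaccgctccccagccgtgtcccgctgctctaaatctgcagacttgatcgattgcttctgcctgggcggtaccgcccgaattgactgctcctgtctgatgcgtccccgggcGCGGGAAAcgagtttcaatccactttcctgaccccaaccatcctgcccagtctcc
CDT1: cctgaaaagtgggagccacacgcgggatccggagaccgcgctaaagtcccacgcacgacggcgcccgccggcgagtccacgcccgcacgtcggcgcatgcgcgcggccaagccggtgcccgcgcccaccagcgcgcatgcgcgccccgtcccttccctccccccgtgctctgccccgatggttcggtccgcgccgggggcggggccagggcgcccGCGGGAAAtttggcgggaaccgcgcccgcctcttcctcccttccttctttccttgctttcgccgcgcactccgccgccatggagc
PCNA: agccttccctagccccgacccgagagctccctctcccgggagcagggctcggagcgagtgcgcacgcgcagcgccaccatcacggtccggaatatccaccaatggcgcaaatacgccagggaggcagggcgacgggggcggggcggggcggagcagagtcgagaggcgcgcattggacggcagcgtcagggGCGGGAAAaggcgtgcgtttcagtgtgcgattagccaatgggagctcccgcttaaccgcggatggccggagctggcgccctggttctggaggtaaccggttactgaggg
ORC6: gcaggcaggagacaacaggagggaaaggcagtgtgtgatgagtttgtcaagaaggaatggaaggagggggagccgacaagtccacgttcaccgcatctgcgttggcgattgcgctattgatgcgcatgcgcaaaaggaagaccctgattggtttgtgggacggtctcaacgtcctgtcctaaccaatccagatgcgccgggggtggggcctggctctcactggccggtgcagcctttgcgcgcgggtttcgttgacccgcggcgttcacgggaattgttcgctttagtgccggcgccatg
MCM6: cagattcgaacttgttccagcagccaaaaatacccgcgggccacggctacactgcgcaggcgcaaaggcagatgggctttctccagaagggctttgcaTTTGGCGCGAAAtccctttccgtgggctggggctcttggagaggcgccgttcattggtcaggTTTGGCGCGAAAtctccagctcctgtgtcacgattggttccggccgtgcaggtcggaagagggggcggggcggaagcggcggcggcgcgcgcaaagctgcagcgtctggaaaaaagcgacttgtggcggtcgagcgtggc
Of the 9 genes called after RANGAP1 loss, CCNE1, MCM10, PRIM1, RRM2 and UNG have no match in their window, and RPA2 was not among the matched windows. The genes that rose therefore do not all share the motif as spelled in this search. Other spellings of it were not searched, and a link between motif and response was not tested. A match is a run of letters and not a measured binding site.

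Per kilobase of exon and as the median over the untreated groups of the 8 line and label sets, PCNA had the highest level, 295 CPM per kb, with group means from 244 to 408, all above the mean of any other member in any line. RRM1, the large subunit of ribonucleotide reductase, followed with 132 and MCM7 with 123, whose ranges over the lines overlapped (112 to 158 and 101 to 146). Within the MCM2-7 ring, whose 6 subunits form 1 complex, the levels ran from 123 (MCM7), 108 (MCM3) and 96.1 (MCM2) to 59.7 (MCM6), 51.8 (MCM4) and 42.1 (MCM5). Neighbours in this order overlapped in their ranges over the lines except MCM2 (75.4 to 114) and MCM6 (38.2 to 67.1). The lowest levels were those of POLA2 (5.87), POLA1 (6.16) and PRIM2 (6.34), 3 of the 4 subunits of polymerase alpha-primase, which lays down the primers. All 45 lay above the median of all tested genes, 4.20 CPM per kb. These levels are set across libraries counted in different ways. They also depend on the annotated exon length of each gene, and the length of the RNA made was not measured. Before division by length the order differed. In untreated AID-TPR cells numbered 1 to 3, MCM7 had a mean of 585 CPM and PCNA 396. There MCM4 had 513, above MCM2 (445) and MCM3 (407), with MCM7 still the highest of the ring. POLA2 had 68.2, above ORC6 (32.1). The order can therefore reflect annotated length as well as RNA level.

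Replicates lay close together for most members. The median coefficient of variation over the 45 genes was between 3.39% and 13.1% within a group, and in 21 of the 22 groups it was below that of all genes above 1 CPM. RPA1, the large subunit of RPA, was the exception, with the highest coefficient of the 45 in 11 of the 22 groups. In the old untreated AID-TPR libraries it had 72.3, 102 and 206 CPM, and in the AID-TPR libraries with ActD 99.2, 73.1 and 214. In untreated AID-GANP cells it had 93.4, 168 and 144 and with auxin 83.1, 166 and 148, so the same replicate was low in both groups. It was called in no comparison of auxin with untreated libraries.

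**Figure D1:**
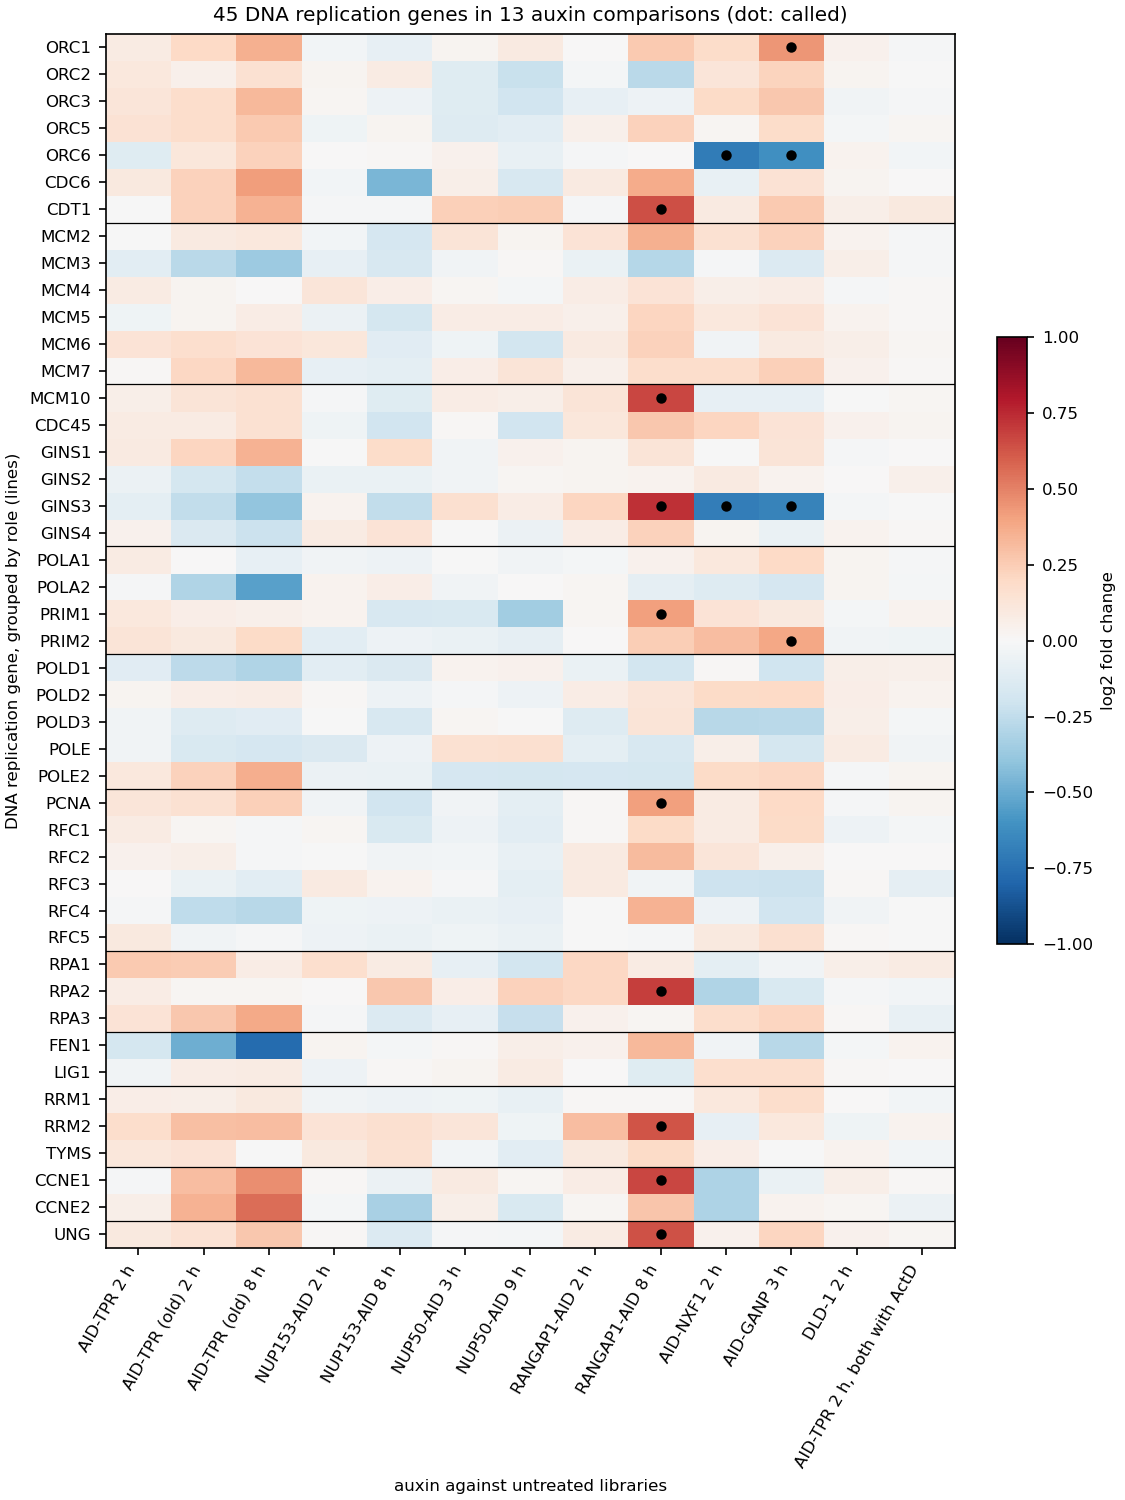
Log2 fold change of the 45 DNA replication genes (rows, grouped by role, from origin licensing at the top to UNG) in the 13 comparisons of libraries with and without auxin (columns), 1 of them within ActD, on a scale from -1 (blue) to 1 (red), with a dot on each of the 15 calls. The dots lie in 3 columns: 9 in RANGAP1-AID at 8 h, 2 in AID-NXF1 at 2 h and 4 in AID-GANP at 3 h.

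After 2 or 3 h without a nuclear basket protein or RANGAP1, none of the 45 genes was called. In AID-TPR cells at 2 h the log2 fold changes lay between -0.17 (FEN1) and 0.26 (RPA1), with a median of 0.07 beside 0.01 over all genes; 1 gene had an unadjusted p under 0.05 and DESeq2 called none, where edgeR called 0.477% of all genes. In the old AID-TPR libraries at 2 h the count was also 0, with or without the library labelled old2, with 1 unadjusted p under 0.05, none by DESeq2 and 0.444% of all genes called. NUP153-AID cells at 2 h had 0 called, 0 with an unadjusted p under 0.05 and 0 by DESeq2, with 0.0225% of all genes called. NUP50-AID cells at 3 h had 0 called, 1 with an unadjusted p under 0.05 and 0 by DESeq2, with 0.191% of all genes called. RANGAP1-AID cells at 2 h had the same 3 counts, with 0.545% of all genes called. At backgrounds this low, a count of 0 among 45 genes does not set them apart. Over all genes, an unadjusted p under 0.05 was found in 9.43% (TPR), 12.1% (old TPR), 3.74% (NUP153), 6.15% (NUP50) and 7.28% (RANGAP1).

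Parental DLD-1 libraries labelled auxin and untreated had 0 called of the 45, 0 with an unadjusted p under 0.05 and 0 by DESeq2, and their log2 fold changes stayed between -0.05 and 0.09 (0.0561% of all genes called). With ActD, auxin moved the 45 genes of AID-TPR cells by -0.09 to 0.10 on the log2 scale. There edgeR and DESeq2 called 0 of them, none had an unadjusted p under 0.05 and edgeR called 0% of all genes. Over all genes, an unadjusted p under 0.05 was found in 3.13% (DLD-1) and 0.438% (ActD).

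After 8 h without RANGAP1, 9 of the 45 genes were called higher and none lower, where 8.23% of all genes were called higher and 14.8% in either direction. They were CDT1, MCM10, GINS3, PRIM1, PCNA, RPA2, RRM2, CCNE1 and UNG, from 8 of the 11 roles above. At any fold, 19 passed the adjusted p with a higher level and 2 (ORC2 and MCM3) with a lower one, beside 26.6% of all genes in either direction, and the median log2 fold change of the 45 was 0.19 beside -0.01 over all genes. In bulk RNA, more cells in S phase and more RNA per cell cannot be told apart.

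Of the licensing genes, CDT1, which with CDC6 loads the helicase and is degraded in S phase, had 51.3, 53.3 and 52.3 CPM untreated, 50.5, 52.1 and 53.8 at 2 h and 83.7, 79.4 and 82.0 at 8 h. The 8 h libraries lay above all others, and the log2 change at 8 h was 0.64 (standard error 0.0618, adjusted p = 8.24e-05). CDC6 passed the adjusted p with a smaller fold, 0.37 (standard error 0.106, adjusted p = 0.0270). The ORC subunits went both ways, with ORC2 at -0.27 and ORC1 at 0.26, and ORC6 was at 0.00.

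None of the MCM2-7 subunits reached the fold limits. MCM2 had 476, 477 and 430.4 CPM untreated and 606, 591 and 579 at 8 h, without overlap, a log2 change of 0.36 (standard error 0.0682, adjusted p = 0.00376) that is short of the 1.3-fold asked for. MCM3 had 407, 382 and 346 before and 317, 312 and 304 after auxin, a change of -0.28 (standard error 0.0731, adjusted p = 0.0166). The groups did not overlap, and MCM3 alone of the 6 had a value below 0. MCM4 had 554, 621 and 553 before and 618, 664 and 620.2 after auxin, where the groups overlapped. MCM5 had 356, 345 and 324 before and 407, 394 and 389 after auxin, and MCM6 had 267, 291 and 270.2 before and 317, 336 and 323 after auxin. Neither gene overlapped, and MCM5 (0.21, adjusted p = 0.0348) and MCM6 (0.23, adjusted p = 0.0240) passed at any fold. MCM7 had 651, 659 and 603 before and 761, 705 and 702 after auxin, without overlap, at an adjusted p of 0.0851.

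Of the genes that activate the helicase, MCM10 had 133, 129 and 118 CPM untreated and 213, 207 and 184 at 8 h, a log2 change of 0.67 (standard error 0.0774, adjusted p = 0.000224). GINS3, a subunit of the GINS complex that joins CDC45 and MCM2-7 in the active helicase, had 44.5, 45.5 and 33.8 before and 75.8, 70.1 and 59.1 after auxin, and its 0.73 (standard error 0.122, adjusted p = 0.00191) was the largest change of the 45. Its partners GINS1, GINS2 and GINS4 were at 0.13, 0.04 and 0.23, none with an adjusted p under 0.05. CDC45 was at 0.27 (standard error 0.0768, adjusted p = 0.0265).

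At the fork, PRIM1, the catalytic subunit of primase, had 37.1, 40.1 and 32.1 CPM untreated and 54.1, 47.9 and 43.3 at 8 h, a change of 0.41 (standard error 0.102, adjusted p = 0.0141). PCNA had 443, 477 and 372 before and 600.1, 588 and 529 after auxin, a change of 0.41 (standard error 0.0949, adjusted p = 0.0103). The groups did not overlap for either gene, but both changes sit close to the fold limit, and neither gene was called without auxin 8 h replicate 1 or 2 or untreated replicate 3. RPA2, the RPA subunit that is phosphorylated at stressed forks, had 91.1, 87.6 and 66.7 before and 141, 130.4 and 126 after auxin, a change of 0.69 (standard error 0.107, adjusted p = 0.00118), while RPA1 was at 0.08 and RPA3 at 0.02. None of the 5 genes of polymerases delta and epsilon passed the adjusted p, with log2 fold changes from -0.18 to 0.13.

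RRM2, the S phase subunit of ribonucleotide reductase, had 448, 571 and 539 CPM untreated and 749, 831 and 829.8 at 8 h, a change of 0.63 (standard error 0.0949, adjusted p = 0.00106), with RRM1 at 0.02. CCNE1, the cyclin that drives entry into S phase with CDK2, had 39.5, 45.7 and 38.8 before and 73.0, 64.2 and 60.5 after auxin, a change of 0.67 (standard error 0.0909, adjusted p = 0.000566). CCNE2 had 35.8, 44.8 and 43.1 before and 51.1, 46.5 and 52.7 after auxin, a change of 0.28 (standard error 0.0926, adjusted p = 0.0480), which passed at any fold. UNG, which removes uracil from new DNA, had 110.2, 108 and 92.8 before and 173, 159 and 150.4 after auxin, a change of 0.63 (standard error 0.0826, adjusted p = 0.000457). All 9 calls held under each of 7 alternatives of processing, and CDT1, MCM10, GINS3, RPA2, RRM2, CCNE1 and UNG also with any 1 of the 6 libraries left out.

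**Figure D2:**
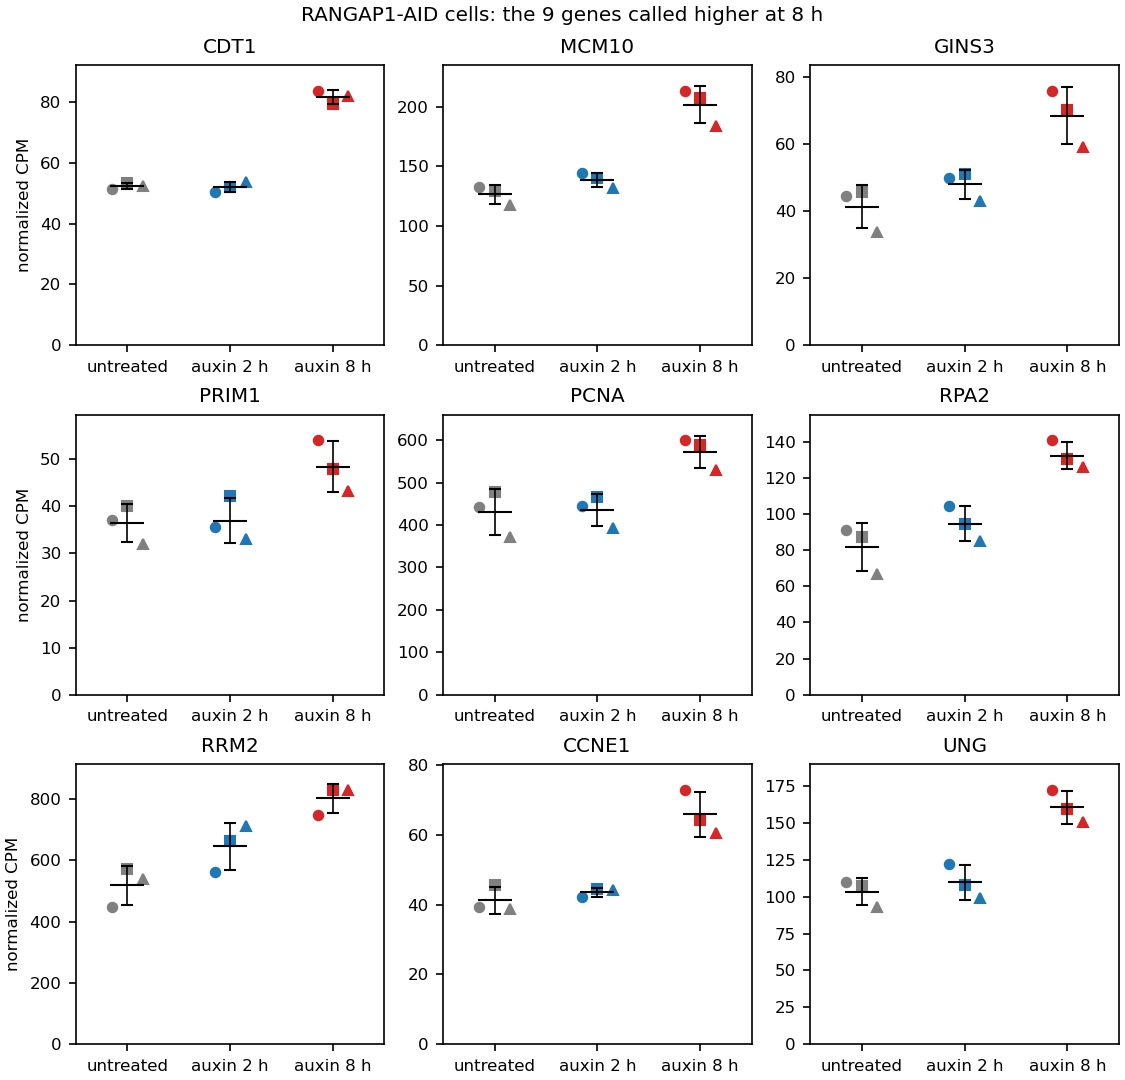
Normalized CPM (vertical axes, from 0) of the 9 genes called higher after 8 h without RANGAP1, in untreated cells (grey), at 2 h (blue) and at 8 h (red). Circles, squares and triangles are replicates 1, 2 and 3, and bars give the mean and SD of the 3 libraries. All 9 have their 3 libraries at 8 h above the 3 untreated ones, and all but RRM2 are level or only slightly raised at 2 h.

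Set against 2 h directly, 8 h of RANGAP1 loss gave 8 of the 45 genes called higher and none lower, where 5.2% of all genes were called higher and 8.8% in either direction. They were the 9 genes without RRM2, which had 563, 663 and 712 CPM at 2 h and a change from 2 h to 8 h of 0.31 (adjusted p = 0.0526). CDT1 had the largest of the 8 changes, 0.65 (standard error 0.0703, adjusted p = 0.000313), and PRIM1 the smallest, 0.39 (standard error 0.110, adjusted p = 0.0370). PRIM1 was not called without auxin 2 h replicate 1 or 3 or 8 h replicate 1 or 2, nor PCNA without 2 h replicate 3 or 8 h replicate 1 or 2. This comparison and that with untreated cells share the 8 h libraries.

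Other cell cycle genes were counted beside them in RANGAP1-AID cells at 8 h. Of 22 further replication genes, 4 were called higher (GMNN 0.41, CHAF1A 0.52, CHAF1B 0.45 and SLBP 0.53) and none lower, with a median of 0.20. Of 16 G2/M genes, CDK1 (-1.34) and AURKA (-0.61) were called lower and none higher, with a median of 0.08. Among 8 inhibitor and stress genes, CDKN1B (0.55) and GADD45A (1.39) were higher, and both were already called higher at 2 h (0.97 and 0.94). From 2 h to 8 h, CDKN1A (-1.01) and GADD45B (-0.63) were called lower among the 8 and GADD45A (0.45) higher, while CDKN1B changed by -0.42. GADD45B was also lower at 8 h than in untreated cells, by -0.39, which passed at any fold. CDKN1B also passed the adjusted p between the parental DLD-1 groups, by -0.49 in the libraries labelled auxin (edgeR, adjusted p = 0.00480), short of the 0.7-fold limit. The part of these genes and of cell cycle distribution in the result was not tested.

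GINS3 and ORC6 were called lower within hours of NXF1 loss and of GANP loss, a count that does not set the 45 genes apart from all genes. After 2 h without NXF1, GINS3 and ORC6 were the 2 of 45 genes called, where 5.93% of all genes were called lower and 8.12% in either direction. At any fold, 6 passed the adjusted p with a higher and 7 with a lower level, beside 21.5% of all genes, and the median of the 45 was 0.06 beside 0.01 over all genes. GINS3 had 40.8, 40.4 and 34.6 CPM untreated and 25.5, 25.1 and 21.1 with auxin, a log2 change of -0.69 (standard error 0.0866, adjusted p = 0.000193). ORC6, the smallest and least tightly bound ORC subunit, had 37.8, 35.2 and 39.3 before and 24.4, 20.2 and 24.8 after auxin, a change of -0.70 (standard error 0.0812, adjusted p = 0.000116). For both genes every auxin library lay below every untreated one, and both calls held with any 1 library left out.

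None of the MCM2-7 subunits was called in these cells. MCM2 had 401, 378 and 356 CPM untreated and 444, 415 and 399.8 with auxin. MCM3 had 322, 300.1 and 298 before and 310.5, 308 and 292 after auxin. MCM4 had 504, 498 and 478 before and 519, 536 and 489 after auxin. In these 3 genes the groups overlapped and the adjusted p was above 0.05. MCM5 had 251, 231 and 224 before and 272, 254 and 235 after auxin. MCM6 had 206, 210.2 and 191 before and 195, 209 and 189 after auxin. MCM7 had 575, 582 and 548 before and 649, 654 and 619 after auxin. MCM5 and MCM6 overlapped too, and MCM7 alone of the 6 had no overlap and passed at any fold, by 0.17 (standard error 0.0499, adjusted p = 0.0300). PCNA had 364, 362 and 327 before and 387, 381 and 343 after auxin, with overlap. Both cyclins E were lower at any fold and short of the 0.7-fold limit. CCNE1 had 55.5, 55.3 and 55.3 before and 47.1, 43.5 and 43.6 after auxin, a change of -0.31 (standard error 0.0526, adjusted p = 0.00159). CCNE2 had 41.8, 45.7 and 45.2 before and 34.8, 36.8 and 35.6 after auxin, a change of -0.31 (standard error 0.0572, adjusted p = 0.00270).

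After 3 h without GANP, 4 of the 45 genes were called, where 15.5% of all genes were. GINS3 and ORC6 were lower (11.5% of all genes were called lower), and ORC1 and PRIM2 higher (3.93% of all genes were called higher). GINS3 had 38.7, 38.9 and 41.5 CPM untreated and 26.3, 23.0 and 25.4 with auxin, a change of -0.67 (standard error 0.0788, adjusted p = 0.000131). ORC6 had 72.4, 59.9 and 65.9 before and 50.4, 36.3 and 42.4 after auxin, a change of -0.62 (standard error 0.115, adjusted p = 0.00268), and was not called without auxin replicate 2. In both genes the groups did not overlap.

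ORC1, the largest ORC subunit, had 98.3, 81.9 and 95.1 CPM untreated and 135, 113 and 126 with auxin, a change of 0.44 (standard error 0.0918, adjusted p = 0.00471). PRIM2, the regulatory subunit of primase, had 30.4, 26.2 and 32.1 before and 43.1, 33.7 and 38.9 after auxin, a change of 0.38 (standard error 0.106, adjusted p = 0.0208). Neither overlapped, but both calls were lost without untreated replicate 2, and that of PRIM2 also without auxin replicate 1 or 3. Without untreated replicate 2 the count was 2 instead of 4. At any fold, 6 genes passed with a higher and 5 with a lower level, beside 28.9% of all genes, and the median of the 45 was 0.11 beside 0.01 over all genes. Of the other lists, GMNN (0.39) was the 1 of 22 further replication genes called after GANP loss, and none was after NXF1 loss, while none of the 16 G2/M genes was called in either line. Among the 8 inhibitor and stress genes, CDKN1A (-1.10 after NXF1 and -0.77 after GANP loss) and CDKN2D (-0.73 and -0.70) were lower and GADD45B (0.68 and 1.19) higher in both, with CDKN2B (-0.94) lower and GADD45A (0.57) higher after GANP loss.

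None of the ring's subunits was called in AID-GANP cells either, where MCM2 had 356, 351 and 359 CPM untreated and 409, 401 and 443 with auxin. MCM3 had 289, 269 and 291 before and 263, 245 and 262 after auxin. MCM4 had 400.5, 407 and 408 before and 419, 428 and 430.2 after auxin. MCM2 passed at any fold with 0.23 (standard error 0.0677, adjusted p = 0.0262). MCM3, lower with auxin, and MCM4 did not overlap either, but their adjusted p-values were 0.152 and 0.419. MCM5 had 229, 238 and 245 before and 250.3, 252 and 279 after auxin. MCM6 had 173, 268 and 224 before and 198, 268 and 243 after auxin, with replicate 1 low in both groups. MCM7 had 479, 513 and 516 before and 559, 588 and 631 after auxin, and passed at any fold with 0.24 (standard error 0.0725, adjusted p = 0.0316). PCNA had 331, 341 and 356 before and 414, 369 and 397 after auxin, without overlap, at an adjusted p of 0.0593. CCNE1 had 36.1, 33.3 and 35.0 before and 35.7, 30.6 and 33.3 after auxin, with overlap. CCNE2 had 51.5, 54.1 and 49.7 before and 54.9, 55.9 and 48.5 after auxin, also with overlap.

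**Figure D3:**
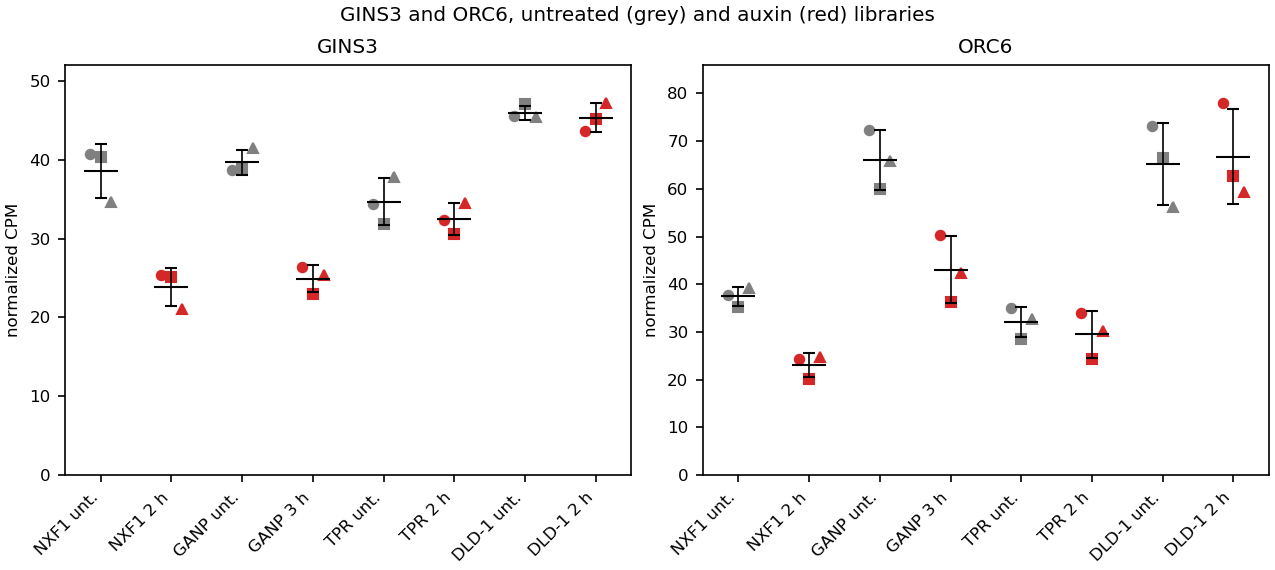
Normalized CPM (vertical axes, from 0) of GINS3 and ORC6 in untreated (grey, unt.) and auxin (red) libraries of AID-NXF1, AID-GANP, AID-TPR (replicates 1 to 3) and parental DLD-1 cells. Circles, squares and triangles are replicates 1, 2 and 3, and bars give the mean and SD of the 3 libraries. In AID-NXF1 and AID-GANP cells all red points lie below the grey ones, and in AID-TPR and DLD-1 cells they overlap.

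In the AID-TPR libraries numbered 1 to 3, GINS3 had 34.4, 31.9 and 37.8 CPM untreated and 32.3, 30.6 and 34.6 after 2 h, a change of -0.10 (standard error 0.0870, adjusted p = 0.772). In the old AID-TPR libraries it had 38.8, 31.1 and 29.7 CPM untreated, 31.5, 25.4 and 26.6 at 2 h and 25.1, 26.0 and 24.5 at 8 h, with overlap at 2 h and none at 8 h. The changes were -0.25 (standard error 0.159, adjusted p = 0.549) at 2 h, -0.39 (standard error 0.149, adjusted p = 0.146) at 8 h and -0.43 (standard error 0.152, adjusted p = 0.0660) at 8 h without 8 h old2, below 0 as after NXF1 and GANP loss but not called. The old libraries were not tested against NXF1 or GANP loss. In the numbered libraries the response of GINS3 differed from that to NXF1 loss by 0.60 (standard error 0.128, adjusted p = 0.0208) and from that to GANP loss by 0.58 (standard error 0.115, adjusted p = 0.00801), each tested as an interaction of line and auxin. It was the 1 gene of the 45 that differed in either comparison, where 2.28% of all genes differed from NXF1 loss (2.09% with the larger value for TPR) and 5.77% from GANP loss (5.15% with the larger value for TPR). The count was 2 without AID-TPR auxin replicate 2 in both comparisons and without AID-TPR untreated replicate 1 against NXF1 loss. The difference from NXF1 loss was lost without AID-NXF1 untreated replicate 1 or 2 or AID-TPR auxin replicate 3. ORC6 in AID-TPR cells had 35.0, 28.6 and 32.7 before and 34.0, 24.3 and 30.3 after auxin, and its differences did not pass (adjusted p = 0.0740 against NXF1 and 0.145 against GANP loss).

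Replicate numbers paired the libraries in these 3 lines, and with the replicate block 12 genes differed between TPR and NXF1 loss (13.3% of all genes) and 12 between TPR and GANP loss (22.1% of all genes), GINS3 and ORC6 among them in both. Between NXF1 and GANP loss, CCNE2 alone differed, by -0.38 (standard error 0.0926, adjusted p = 0.0369), beside 2.62% of all genes (1.36% with the smaller value for NXF1). With the block 13 genes did so (15.1% of all genes). CCNE2 was not called with RLE normalization, without the filter or without any one of 9 of the 12 libraries, the exceptions being AID-NXF1 untreated replicate 1, AID-GANP auxin replicate 3 and AID-GANP untreated replicate 2. GINS3 and ORC6 did not pass this test, and their differences of -0.06 and -0.12 had standard errors of 0.122 and 0.151.

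In the old AID-TPR libraries, 8 h of auxin gave none of the 45 genes called with all 6 libraries (3.59% of all genes called), and 10 without the library labelled 8 h old2. By DESeq2 the count with all libraries was 4, and 16 genes (35.6%) had an unadjusted p under 0.05, beside 24.2% of all genes. Without 8 h old2, ORC1, CDC6, CDT1, MCM7, GINS1, POLE2, CCNE1 and CCNE2 were called higher and FEN1 and POLA2 lower, where 21% of all genes were called before removal of those called in DLD-1 cells. At that share the count of 10 does not set the 45 genes apart, and this library was singled out after its values were seen. With all libraries, DBF4 (0.70) was the 1 of 22 further replication genes called and GADD45A (0.80) the 1 of 8 inhibitor and stress genes, both higher, and none of the 16 G2/M genes was called. FEN1, the nuclease that trims Okazaki fragments, had 208, 188 and 187 CPM untreated, 174, 89.9 and 149.9 at 2 h and 79.3, 164 and 97.2 at 8 h. Its log2 change at 8 h was -0.77 (standard error 0.234, adjusted p = 0.0904) with all libraries and -1.15 (standard error 0.129, adjusted p = 0.000272) without 8 h old2. In the AID-TPR libraries numbered 1 to 3 it had 172, 172 and 187 untreated and 159, 151 and 162 at 2 h, without overlap, a log2 change of -0.17 (standard error 0.0646, adjusted p = 0.414).

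POLA2, the accessory subunit of polymerase alpha, had 78.9, 69.2 and 76.3 CPM untreated, 72.3, 40.0 and 69.6 at 2 h and 43.8, 62.9 and 46.7 at 8 h. CCNE1 had 61.4, 51.6 and 51.6 untreated, 62.2, 91.7 and 49.2 at 2 h and 89.5, 50.3 and 87.5 at 8 h. In both genes the old2 library at 2 h is on the side of the 8 h libraries and that at 8 h on the side of the 2 h libraries. CCNE2 had 20.2, 26.8 and 21.9 untreated, 26.1, 37.7 and 23.5 at 2 h and 38.7, 26.4 and 36.0 at 8 h, with the same crossing. Of the 45 genes, 20 had no overlap between the old1 and old3 libraries of 2 h and those of 8 h, and in 16 of these 20 both old2 libraries lay on the side of the other time. The same counts were not made over all genes, so they do not set the members apart. Without 8 h old2 the changes were -0.73 (standard error 0.122, adjusted p = 0.00226) for POLA2, 0.68 (standard error 0.124, adjusted p = 0.00363) for CCNE1 and 0.70 (standard error 0.140, adjusted p = 0.00587) for CCNE2.

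CDC6 had 232, 215 and 201 CPM untreated and 326, 231 and 309 at 8 h, and CDT1 61.6, 57.3 and 57.5 untreated and 85.8, 50.6 and 87.5 at 8 h. Without 8 h old2 their changes were 0.55 and 0.55, and those of ORC1, GINS1, POLE2 and MCM7 were 0.53, 0.43, 0.48 and 0.45. Set against 2 h, 8 h gave 0 of the 45 genes called with all libraries, by edgeR and DESeq2 alike, and 0% of all genes by edgeR. None of the 45 had an unadjusted p under 0.05, beside 0.269% of all genes. Without both old2 auxin libraries, 3 were called (4.67% of all genes): FEN1 at -0.88 (standard error 0.151, adjusted p = 0.0129) and POLA2 at -0.66 (standard error 0.132, adjusted p = 0.0255), both lower, and CCNE1, higher, at 0.66 (standard error 0.149, adjusted p = 0.0366).

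**Figure D4:**
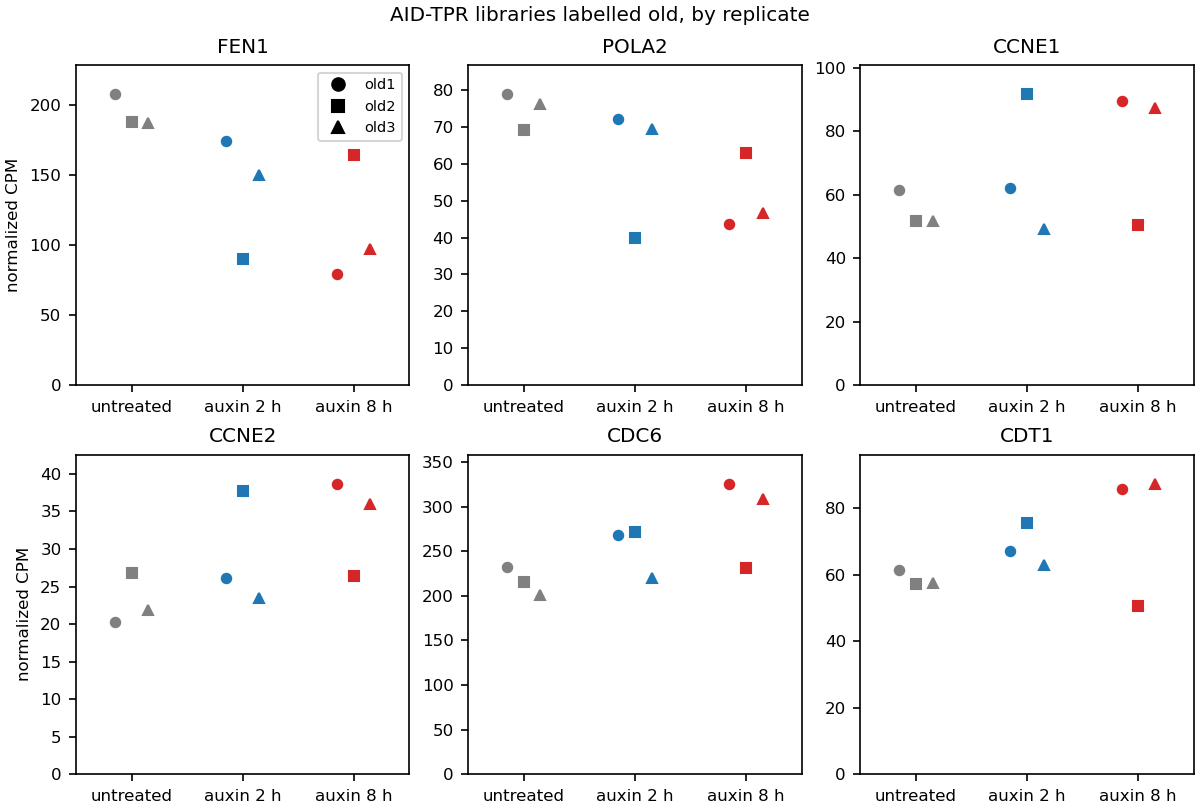
Normalized CPM (vertical axes, from 0) of FEN1, POLA2, CCNE1, CCNE2, CDC6 and CDT1 in the AID-TPR libraries labelled old, untreated (grey), after 2 h (blue) and after 8 h (red) of auxin. Circles, squares and triangles are old1, old2 and old3. The blue square lies with the red circle and triangle in FEN1, POLA2, CCNE1 and CCNE2, and the red square is nearer to the blue circle and triangle than to the other red points in all 6 panels.

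After 8 h without NUP153, none of the 45 genes was called (1.32% of all genes were, and DESeq2 called none of the 45). An unadjusted p under 0.05 was found in 10 of the 45 (22.2%) and in 13.8% of all genes. CDC6 came nearest to a call. It had 273, 249 and 246 CPM untreated, 269, 254 and 230.2 at 2 h and 179.8, 199 and 179.5 at 8 h, every 8 h library below all others. Its log2 change was -0.46 (standard error 0.0690, adjusted p = 0.0134), which passed at any fold, as 1.9% of all genes did, but not at the 0.7-fold limit. Against 2 h none was called by either tool (1.95% of all genes by edgeR). There 7 (15.6%) had an unadjusted p under 0.05, beside 16.2% of all genes. CDC6 passed at any fold by -0.44 (standard error 0.0761, adjusted p = 0.0129), beside 3.07% of all genes. Set against untreated cells, the 45 genes had a median of -0.05 at 8 h, beside 0 over all genes. In that comparison 9 of 16 G2/M genes were called higher, KIF20A (0.62) and PLK1 (0.52) among them, with a median of 0.39. None of the 22 further replication genes was called, and of the 8 inhibitor and stress genes CDKN2C (0.57) was called higher and none lower. The log2 fold changes of the 8 ran from -1.90 to 0.57, with a median of -0.04. Against 2 h, CDKN2C (0.74) was called higher and CDKN1A (-1.84) lower among the 8, with a median of -0.15. The part of cell cycle distribution was not tested.

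After 9 h without NUP50 none of the 45 was called by edgeR or DESeq2 (0.365% of all genes by edgeR). An unadjusted p under 0.05 was found in 10 of the 45 (22.2%) and in 16.5% of all genes. The log2 fold changes of the 45 lay between -0.34 (PRIM1) and 0.25 (CDT1). Against 3 h the count was 0 by both tools, with 0.258% of all genes called by edgeR. There 4 (8.89%) had an unadjusted p under 0.05, beside 8.34% of all genes.

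At 8 h, the comparison of NUP153 with RANGAP1 loss gave the highest count of members whose responses differed. In 16 of the 45 genes the change at 8 h was smaller after NUP153 than after RANGAP1 loss, and in none larger, where 5.92% of all genes had the smaller value for NUP153 and 10.4% differed in either direction. These genes were CDC6, CDT1, MCM2, MCM5, MCM6, MCM10, CDC45, GINS3, PRIM1, PCNA, RFC1, FEN1, RRM2, CCNE1, CCNE2 and UNG. The largest differences were those of GINS3, -0.99 (standard error 0.152, adjusted p = 0.000689), CDC6, -0.85 (standard error 0.139, adjusted p = 0.00116), and MCM10, -0.81 (standard error 0.108, adjusted p = 0.000246). CDC6 passed the adjusted p in both lines with opposite signs, -0.46 after NUP153 and 0.37 after RANGAP1 loss. With 1 library left out, CDC6, CDT1, MCM2, MCM5, MCM10, CDC45, GINS3, PRIM1, PCNA, CCNE1 and UNG stayed called in all 12 cases.

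**Figure D5:**
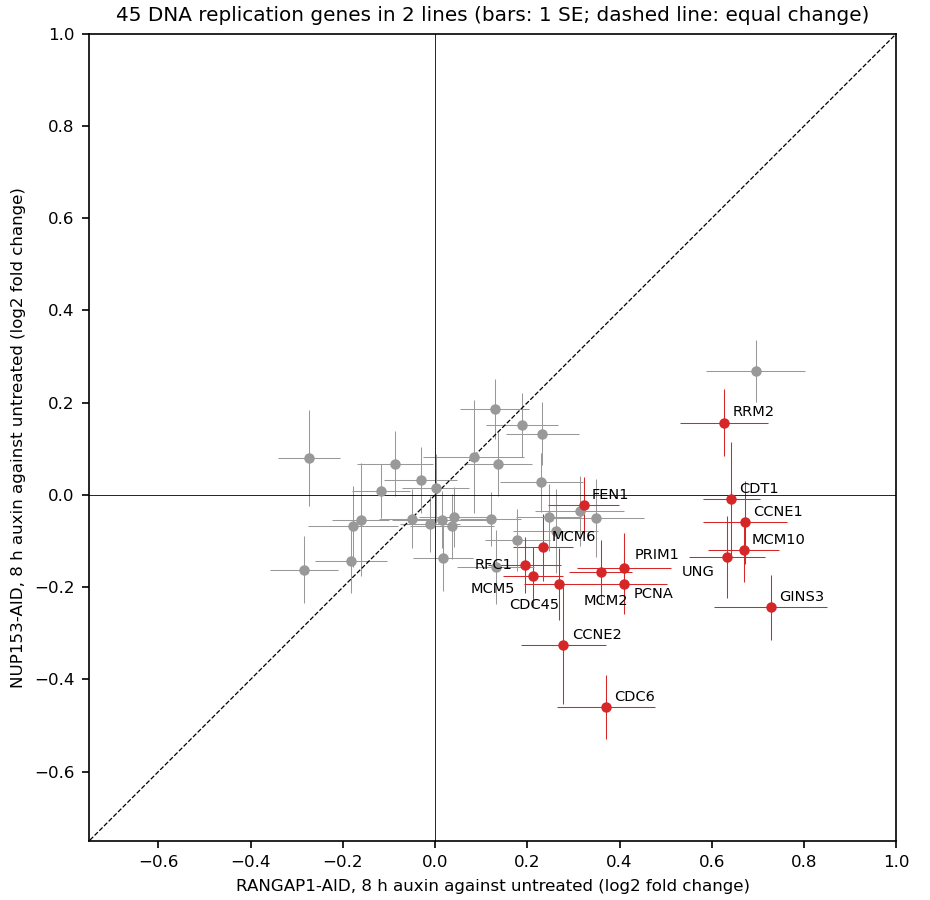
Log2 fold change of the 45 genes after 8 h of auxin in RANGAP1-AID cells (horizontal axis) and NUP153-AID cells (vertical axis), with 1 standard error. The 16 genes whose responses differed (red, named) all lie right of 0 on the horizontal axis and below the dashed line of equal change, and CDC6 is the lowest.

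Between TPR loss, in the old libraries, and NUP153 loss at 8 h, 4 genes differed, all with the larger value after TPR loss, where 5.08% of all genes had the larger value for TPR and 10.2% differed in either direction. They were CDC6 (0.89, adjusted p = 0.00544), PCNA (0.44), RPA3 (0.53) and CCNE2 (0.90). Without 8 h old2 the count was 14 (23% of all genes), 11 with the larger and 3 with the smaller value for TPR. It was 2 without 8 h old3, 1 without untreated old3 or NUP153-AID auxin replicate 3, and 2 without any one untreated NUP153-AID replicate.

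Between TPR and RANGAP1 loss at 8 h, 5 genes differed (11.4% of all genes). ORC2 had the larger value after TPR loss (4.6% of all genes did), and GINS3, RFC4, RPA2 and FEN1 the smaller (6.78% of all genes did). GINS3 differed by -1.12 (standard error 0.200, adjusted p = 0.00336) and FEN1 by -1.09 (standard error 0.271, adjusted p = 0.0193). FEN1, lower in the old AID-TPR libraries, had 185, 188 and 159 CPM in untreated RANGAP1-AID cells and 233, 219 and 215 at 8 h. Without 8 h old2 of TPR 8 genes differed (23.7% of all genes), and the count fell to between 1 and 3 without 8 h old3, untreated old1 or old2, any one RANGAP1-AID auxin replicate, or untreated RANGAP1-AID replicate 2 or 3. GINS3 was called higher after RANGAP1 loss and lower after NXF1 and GANP loss. The difference between those lines was not tested.

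Some members share exons with a gene on the opposite strand, whose reads may be counted for both where strand was not used. The overlap covers 39.9% of the exon bases of TYMS (ENOSF1), 37.1% of CCNE2 (INTS8), 21.0% of GINS4 (a lncRNA) and 10.9% of GINS3 (a lncRNA). Untreated AID-TPR cells counted in the 2 ways had 49.5 and 23.0 CPM of CCNE2, 107 and 72.0 of TYMS and 71.7 and 53.5 of GINS4 in the libraries numbered 1 to 3 and in the old ones. For 44 of the 45 genes the 2 sets were within 1.5 times of each other, and CCNE2 was the other. The levels of CCNE2, TYMS and GINS4 are therefore uncertain in all libraries and were compared between lines only through the change with auxin. That change can also hold the response of the overlapping gene where its reads were counted, which was not tested.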

How the data were processed

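RNA-seq of 66 libraries in 22 groups of 3 was analysed from the gene counts the authors deposited, 1 file per library. The submitters' processing notes name CASAVA 1.8.2, STAR 2.6.1c and featureCounts 1.5.2. The counts are raw and not normalized, and the files were not all counted alike: 24 libraries have no mitochondrial gene counts, 33 have these but no RMRP and 9 have both, so groups were compared within a line and label set.

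The members and lists were chosen with earlier results of these data known. Genes above 1 CPM in at least 4 of the 60 libraries without ActD were kept (17812). Each comparison was fitted on its own 2 groups with edgeR 4.0.16 (TMM, quasi-likelihood F test, two-sided, Benjamini-Hochberg over all tested genes, R 4.3.3), and comparisons of lines on 12 libraries with an interaction term, called at an adjusted p under 0.05 and any fold. The standard error is the absolute log2 fold change divided by the square root of F. The 10 genes called in DLD-1 cells, none a member, were left out of the tagged lines' calls. DESeq2 1.42.0, RLE normalization, no filter, a replicate block, 1 fit over 60 libraries, other fold limits and each library left out were the alternatives. The code was tested on simulated data.

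Values of every library are given for members called in a comparison with untreated cells and for MCM2 to MCM7, PCNA, CCNE1 and CCNE2 there, values of genes in the TPR old libraries were chosen after their values were seen, and all other members are given by range and count. Replicate numbers paired the libraries (correlation of deviations above 0.1 for all 3 pairs) in 9 of 17 comparisons, those of AID-NXF1, AID-GANP, RANGAP1-AID and the numbered AID-TPR libraries among them. The study's methods describe the replicates as independent biological ones. Promoter sequences are from RefSeq (GRCh38.p14).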

Additional observations from a re-analysis of the deposited data

Results flagged for a closer look

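In 28 cases the response of a gene differed between lines by the test of the difference itself (edgeR interaction of line and auxin, adjusted p under 0.05, log2 difference given). GINS3 differed between TPR and NXF1 loss by 0.60 and between TPR and GANP loss by 0.58, and CCNE2 between NXF1 and GANP loss by -0.38. Between TPR loss in the old libraries and NUP153 loss, both at 8 h, CDC6 differed by 0.89, PCNA by 0.44, RPA3 by 0.53 and CCNE2 by 0.90. Between TPR loss in the old libraries and RANGAP1 loss at 8 h, ORC2 differed by 0.42, GINS3 by -1.12, RFC4 by -0.63, RPA2 by -0.67 and FEN1 by -1.09. Between NUP153 and RANGAP1 loss at 8 h, the differences in origin licensing and the helicase were -0.85 for CDC6, -0.67 for CDT1, -0.54 for MCM2, -0.41 for MCM5, -0.37 for MCM6, -0.81 for MCM10, -0.48 for CDC45 and -0.99 for GINS3. In synthesis they were -0.59 for PRIM1, -0.62 for PCNA, -0.36 for RFC1 and -0.36 for FEN1, and in the other roles -0.49 for RRM2, -0.75 for CCNE1, -0.62 for CCNE2 and -0.79 for UNG. A negative value means a smaller log2 fold change in the line named first. In the comparisons with old TPR libraries, CDC6 against NUP153 loss and GINS3 against RANGAP1 loss stayed called whichever 1 of the 12 libraries was left out, and the other 7 genes did not. No other kind of flag was raised, since groups of 3 libraries are too small for a test of outlying samples.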

How the results depend on the processing

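None of the genes called in a comparison changed sign there under the alternatives run, and members that were not called were not followed gene by gene. The count of members called after 8 h of TPR loss (old libraries), 0 as reported, was 4 with DESeq2, 3 with no filter, 1 with the replicate block, 5 in 1 fit over 60 libraries (3 higher and 2 lower) and 0 to 10 with 1 library left out. The block used replicate numbers that do not pair these libraries. Against 2 h it was 3 without both old2 auxin libraries, an alternative chosen after seeing the data. At any fold the counts were 21 (RANGAP1 8 h), 13 (NXF1), 11 (GANP), 1 (NUP153 8 h) and 1 (NUP153 8 h against 2 h). With 1.3-fold asked for in both directions, NUP153 8 h and NUP153 8 h against 2 h also had 1. The count after GANP loss was 2 to 4 with 1 library left out. Of the differences between lines, TPR against NXF1 loss gave 2 genes with DESeq2, 4 with no filter, 12 with the replicate block and 0 to 2 with 1 library left out. TPR against GANP loss gave 2 with no filter, 12 with the block and 1 to 2 with 1 library left out. NXF1 against GANP loss gave 0 with RLE normalization, 0 with no filter, 13 with the block and 0 to 1 with 1 library left out. TPR against NUP153 loss at 8 h gave 1 to 14 with 1 library left out, and TPR against RANGAP1 loss 8 with DESeq2 and 1 to 8 with 1 library left out. Where a fit leaves 2 libraries in a group, fewer samples lower what can be called, and the other causes were not tested. The block moved no other count by over 1.5 times. With 3 libraries a group, changes under the fold limits were not resolved in most genes. No share of all genes is given beside the counts with DESeq2, RLE normalization, no filter, 1 fit or libraries other than old2 left out. Those counts alone do not set the members apart.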
